A study of Drosophila melanogaster with 12 samples.

Results

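Brown (bw), scarlet (st), vermilion (v), cinnabar (cn), Punch (Pu), purple (pr) and sepia (se) are genes of the eye pigment pathways of Drosophila melanogaster, and their RNA was followed here in the larval fat body. The 7 genes were chosen by name, for their part in making or moving the pigments, with the response of some of them in these libraries already known. A row with a usable name was found for 5 of them, bw, st, v, Pu and pr, among the 9367 genes kept; cn and se had no row and were not analysed here. Identifiers and chromosome arms come from the reference annotation: bw (FBgn0000241) and Pu (FBgn0003162) lie on arm 2R, pr (FBgn0003141) on 2L, st (FBgn0003515) on 3L and v (FBgn0003965) on X.

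Female larvae at the wandering stage, the end of larval life, were fed 0.15 M sucrose (the control diet) or 0.7 M sucrose (high sugar). All of them carried UAS-Dcr2, a transgene that strengthens RNA interference, and r4-GAL4, a driver active in fat body. Their fathers came from VDRC stock 60100, the control genotype, or from stock 100762, whose UAS-Svpi transgene makes a hairpin against svp. Seven-up, the product of svp, is the fly COUP-TF, an orphan nuclear receptor. Each of the 4 combinations of diet and genotype was measured in 3 libraries of total RNA depleted of ribosomal RNA. Each genotype is 1 stock. No label tells if libraries of 1 group are from different animals or cultures, so a p-value here reflects spread between libraries that may be technical.

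The red eye colours of the fly are pteridines, made from GTP, and the brown ones are ommochromes, made from tryptophan. Punch is GTP cyclohydrolase, which opens the pteridine pathway, and purple is the pyruvoyl tetrahydropterin synthase that follows it; their product line also yields tetrahydrobiopterin, the cofactor of the aromatic amino acid hydroxylases. Vermilion is tryptophan oxygenase, the entry to the ommochrome pathway, which in larvae works in the fat body and passes kynurenine on to other organs. Brown and scarlet are half-size ABC transporters that each pair with white (w): the brown pair is known for carrying pteridine precursors and the scarlet pair for carrying ommochrome precursors into pigment granules.

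Between 4380821 and 6556581 reads per library were recovered from the deposited values. The targeted gene went against its label: normalised abundance of svp was 456 ± 73.8 (SD, n = 3) in control and 1558 ± 179 in RNAi-labelled libraries on the control diet, and 641 ± 19.8 and 1790 ± 356 on high sugar. It rose by 1.78 ± 0.16 on the log2 scale (limma, adjusted p = 6.8e-06) and by 1.46 ± 0.16 (adjusted p = 2.18e-05). Whether those reads came from the endogenous transcript or from the hairpin was not tested, and the libraries from stock 100762 are called RNAi-labelled for that reason. All 12 fat body markers were in the table, and 6 of 12 were called lower in RNAi-labelled libraries on each diet. Called means an adjusted p under 0.05 by limma. Their summed reads did not overlap between genotypes: 1839184 to 1999366 in control against 1097190 to 1507492 on the control diet, and 1585446 to 1701301 against 1206984 to 1416260 on high sugar. Most members lay lower: differences of 10 of 12 were below 0 on the control diet and 2 above (median -0.688). On high sugar 9 of 12 were below 0 and 3 above (median -0.644). A few abundant genes weigh most in the sums. Among them Lsp1alpha fell (-3.83 ± 0.36 and -3.57 ± 0.36 on the 2 diets), while Lsp2 did not pass on either (0.17 ± 0.44 and 0.64 ± 0.44). For Malpighian tubules, which also use the pigment genes, 8 of 12 markers were measured (not Irk2, CapaR, Oatp58Db or Lkr). They summed to 1082 to 1215 reads in control and 679 to 1233 in RNAi-labelled libraries on the control diet. On high sugar the sums were 1074 to 1167 and 741 to 792. Ncc69 was called lower on both diets. Differences of 4 of 8 lay above 0 on the control diet and of 1 of 8 on high sugar. Alp4 (Aph-4) was above 0 on both, at 1.0 ± 0.35 and 1.05 ± 0.35, and did not pass (adjusted p = 0.0974 and 0.0609 by limma). For the eye disc, 9 of 11 were measured (not gl or ninaE). They summed to 650 to 686 reads against 452 to 612 on the control diet, and to 539 to 675 against 388 to 416 on high sugar. Only elav was called, lower on high sugar. Differences of 8 of 9 lay below 0 on the control diet and of 7 of 9 on high sugar. Muscle markers differed as well: 13 of 13 were called lower in RNAi-labelled libraries on the control diet. Their sum there was 11395 to 17280 reads against 27618 to 39154 in control. On high sugar 7 of 13 were called lower and all 13 lay below 0, with sums of 13100 to 16119 against 21930 to 32512. Of 10 hemocyte markers, 1 was called higher and 2 lower on the control diet, and 2 were called higher and 4 lower on high sugar. Differences of 7 of 10 lay below 0 on each diet. Their sums were 10853 to 13072 in control against 8835 to 11009 on the control diet, and 6675 to 10932 against 4685 to 6314 on high sugar. Of 8 midgut markers measured, 1 was called higher on the control diet and 0 on high sugar, and 0 were called lower. Differences of 5 of 8 lay below 0 on the control diet and of 7 of 8 on high sugar. The sums were 1152 to 3599 in control against 1159 to 1695 on the control diet, and 1290 to 3188 against 1168 to 1833 on high sugar. Over all genes, 8.56% were called between genotypes on the control diet and 13.4% on high sugar. In whole-tissue RNA, fewer cells of a type, less RNA per cell and a change of single marker genes cannot be told apart. The part of these marker differences in the results that follow was not tested.

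Brown had the largest rise in RNAi-labelled libraries of the 9367 genes on both diets, all of which had at least 1 read in every library. In replicate order, its normalised abundance in control larvae was 43.6, 108 and 91.2 on the control diet and 84.0, 57.6 and 32.0 on high sugar. In RNAi-labelled libraries it was 3201, 2313 and 2358 on the control diet and 3464, 3430 and 3673 on high sugar. Every RNAi-labelled library thus lay far above every control library, and the lowest of the former was on the control diet. On the log2(value + 1) scale the difference was 5.08 ± 0.32 (SE), or 33.9-fold, on the control diet and 6.01 ± 0.32, or 64.3-fold, on high sugar. These values are given without a test, since brown was chosen with this contrast in view. Leaving out any 1 library left the differences between 4.70 and 5.34 and between 5.64 and 6.32. The spread among replicates also differed with the level: scaled jointly over both diets, the coefficient of variation was 41.2% and 45.7% in the control groups and 18.8% and 4.04% in the RNAi-labelled groups. The control values rested on few reads, 50, 97 and 62 on the control diet and 79, 59 and 31 on high sugar.

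**Figure D1:**
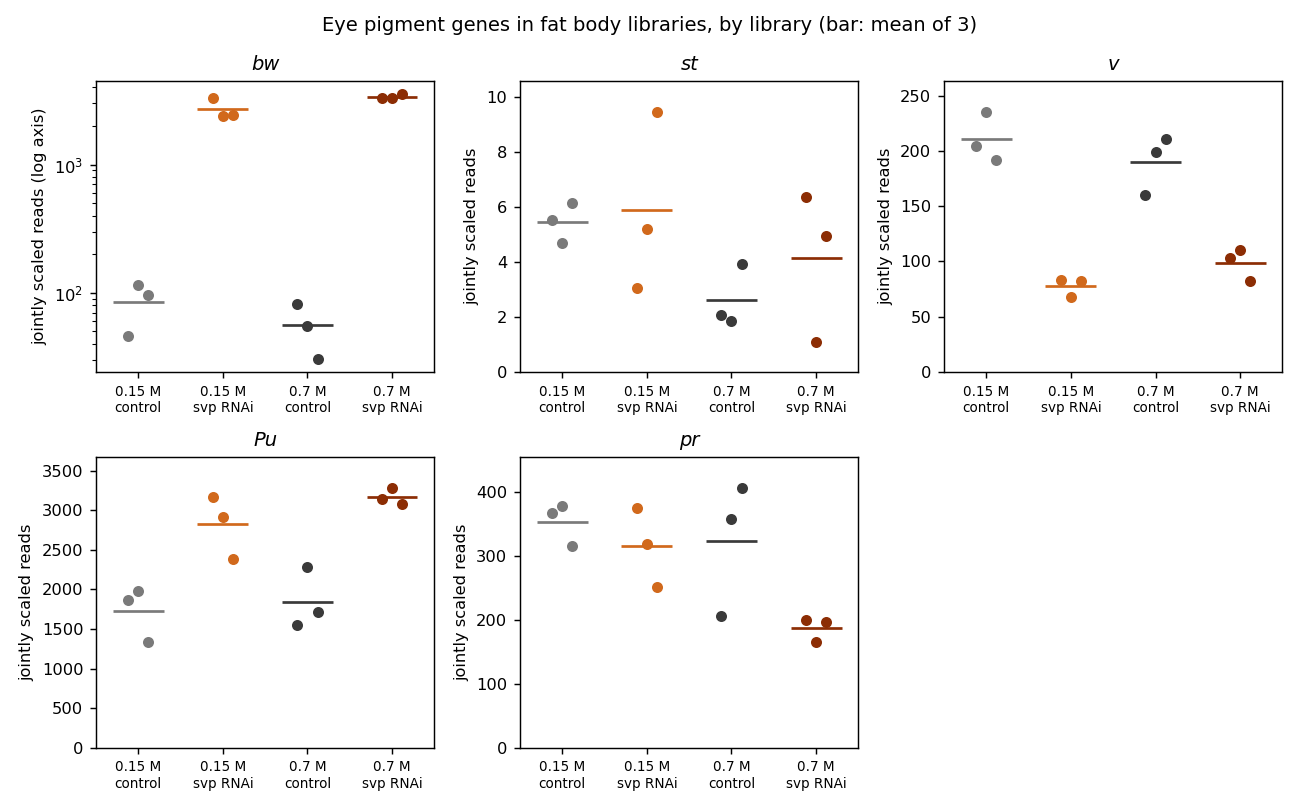
Jointly scaled reads of the 5 measured genes in each of the 12 libraries (points, 3 per group), with the group mean as a bar; the bw axis is logarithmic and the others are linear from 0. The RNAi-labelled groups lie at 2396 to 3541 for bw, above all control libraries at 30.5 to 114.

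White, the partner of both transporters, could be read on high sugar only, because the table joined the diets by symbol without regard to case and its control-diet values cannot be assigned between w and another gene, W. Its abundance on high sugar was 642, 581 and 752 in control and 5053, 3392 and 4164 in RNAi-labelled libraries. The groups did not overlap and the means, 658 ± 86.7 and 4203 ± 831 (SD, n = 3 each), differed by 2.66 on the log2 scale, or 6.33-fold, with no test, as the row was not part of the fit. White is also a widely used marker in fly transgenes, and reads from such a marker and from the endogenous gene cannot be told apart here.

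Scarlet, the other partner of white, was near the limit of measurement. Its recovered reads were 6, 4 and 4 in control and 3, 6 and 11 in RNAi-labelled libraries on the control diet, and 2, 2 and 4 against 7, 1 and 6 on high sugar. The genotypes overlapped on both diets. The log2 differences were 0.01 ± 0.50 and 0.41 ± 0.50, so that at this depth a change of up to about 1 on the log2 scale in either direction lies within 2 standard errors on the control diet. Of the 4 nearest measured genes around st, Mipp1, with 2 other protein-coding genes between, rose on both diets. It was 44.0 ± 15.8 in control and 101 ± 29.5 in RNAi-labelled libraries on the control diet (1.21 ± 0.30, adjusted p = 0.0191 by limma), and 80.2 ± 11.6 against 212 ± 62.1 on high sugar (1.36 ± 0.30, adjusted p = 0.00658). Its control-diet call was lost without control replicate 2 or RNAi-labelled replicate 1 or 2, with values of 0.88 to 1.46 over all such fits. The other 3, among them CG43373, which overlaps st, did not pass on either diet.

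Of the ABCG family of half-size transporters to which these genes belong, 11 others were measured. This list, the marker lists above and the synthesis, purine and granule lists below were chosen with earlier results of these data known. Their tests are therefore not independent of those results. On the control diet 2 were called higher and 0 lower in RNAi-labelled libraries (8.56% of all genes were called). On high sugar 3 were called higher and 0 lower (13.4% of all genes). The median log2 difference of the 11 was 0.143 and 0.275, against 0.006 and -0.009 over all genes. CG5853 was 145, 180 and 144 in control and 298, 305 and 213 in RNAi-labelled libraries on the control diet, and 389, 372 and 332 against 625, 538 and 699 on high sugar. It rose on both diets, by 0.78 ± 0.16 (limma, adjusted p = 0.00496) and 0.76 ± 0.16 (adjusted p = 0.00456), with no overlap between genotypes. CG4822 rose from 791 ± 132 to 1517 ± 289 on the control diet (0.93 ± 0.18, adjusted p = 0.00361 by limma) and from 1022 ± 213 to 1594 ± 140 on high sugar (0.66 ± 0.18, adjusted p = 0.0253). The high-sugar call of CG4822 was lost when any of 4 libraries was left out: replicates 1 and 3 of both high-sugar groups, which gave 0.50 to 0.67. CG3164 rose on high sugar by 0.57 ± 0.14 (adjusted p = 0.0123 by limma), a call lost without control replicate 3 or RNAi-labelled replicate 1 or 3 of that diet (0.52 to 0.64 over all such fits). None of these differences came near those of brown and white.

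**Figure D2:**
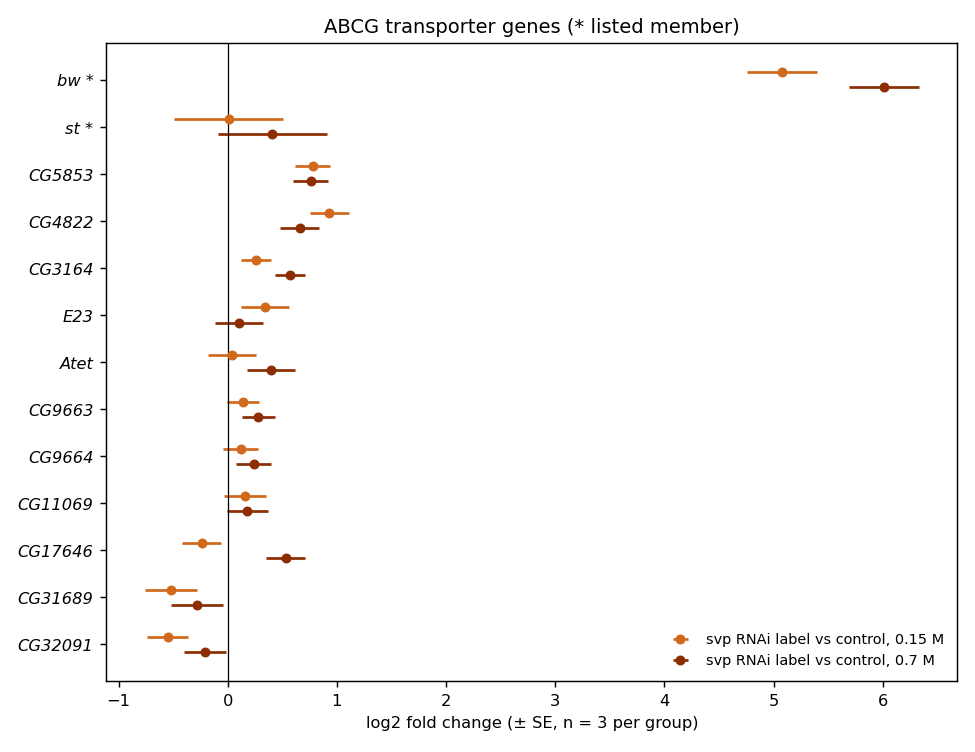
Log2 difference between RNAi-labelled and control libraries, on each diet, for 13 measured ABCG transporter genes, with the standard error as bars. Brown stands at 5.08 and 6.01 and the 12 others lie between -0.55 and 0.93.

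Because brown moved so far, the genes beside it were also read, in the gene order of reference release 6. The 2 measured genes on each side were RabX1 (chrw in the table), a small GTPase, and mi on one side, and ppk3 (CG30181) and AIMP3 (CG30185) on the other. On one side mi overlaps the span of brown, and on the other ppk3, a channel subunit of the pickpocket family, is the next protein-coding gene; the former did not pass the test and the latter differed strongly. Its abundance was 1.66, 6.55 and 3.12 in control and 130, 87.1 and 97.3 in RNAi-labelled libraries on the control diet, and 4.26, 2.92 and 4.11 against 114, 115 and 123 on high sugar. The control libraries held 2 to 6 reads of this gene and RNAi-labelled libraries 99 to 144. CG30181 rose by 4.58 ± 0.32 (limma, adjusted p = 1.13e-06) on the control diet and by 4.65 ± 0.32 (adjusted p = 5.69e-07) on high sugar. RabX1 (chrw) was 83.2, 75.8 and 64.5 against 140, 145 and 114 on the control diet, and 82.1, 71.2 and 71.9 against 239, 177 and 233 on high sugar. It rose by 0.83 ± 0.16 (limma, adjusted p = 0.0043) and 1.50 ± 0.16 (adjusted p = 2.4e-05), with no overlap on either diet.

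The overlapping gene mi was 77.3 ± 7.85 against 93.6 ± 16.9 on the control diet and 107 ± 17.0 against 126 ± 1.02 on high sugar, and did not pass the test on either (0.26 ± 0.17 and 0.25 ± 0.17). AIMP3 (CG30185) did not pass either, at 0.34 ± 0.16 and -0.08 ± 0.16. A wider window of 10 measured genes on each side, chosen after the values were seen, held 5 called genes of 20 on the control diet, where 8.56% of all genes were called, and 4 of 20 on high sugar, where 13.4% were. They moved in both directions: CG9812, 5 places away, fell by 1.93 ± 0.46 and by 2.55 ± 0.46 on the log2 scale. The same window held 3 and 4 called genes around v, 2 and 3 around st, 1 and 1 around pr and 0 and 0 around Pu. These windows were not tested against that share.

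**Figure D3:**
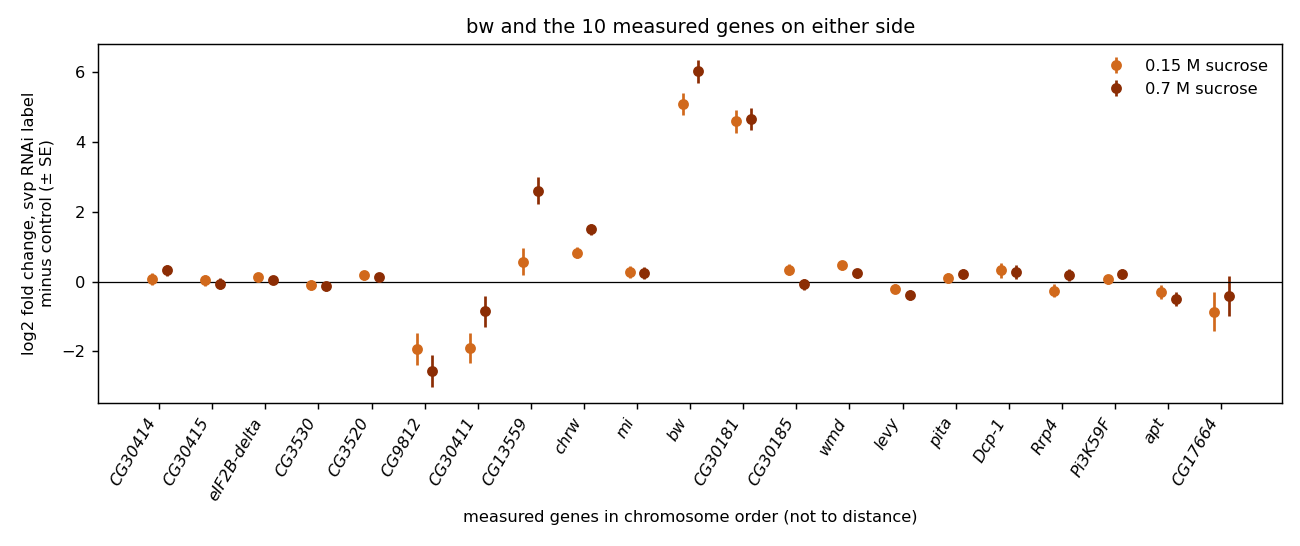
Log2 difference between RNAi-labelled and control libraries for bw and the 10 measured genes on each side of it, in reference gene order and not to distance, with standard errors, on both diets. Brown and CG30181 beside it stand at 4.58 or above on both diets, and the others lie between -2.55 and 2.60.

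Vermilion moved the other way. Its abundance was 195, 223 and 186 in control and 80.9, 65.3 and 79.4 in RNAi-labelled libraries on the control diet, and 166, 208 and 220 against 107, 114 and 85.0 on high sugar. No RNAi-labelled library reached the lowest control library on either diet. The difference was -1.41 ± 0.16, or 2.66-fold lower, on the control diet and -0.95 ± 0.16, or 1.93-fold lower, on high sugar, given as a description. CG2145, the measured gene directly beside v, fell as well, from 1364 ± 142 to 430 ± 36.8 on the control diet (-1.66 ± 0.14, adjusted p = 4.86e-06 by limma) and from 1187 ± 208 to 623 ± 52.6 on high sugar (-0.92 ± 0.14, adjusted p = 0.000481). The other 3 measured genes nearest to v did not pass on either diet.

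The step after vermilion showed the largest difference among the synthesis genes. Kynurenine formamidase (KFase, CG9542 in the table) turns the product of vermilion into kynurenine. Its abundance was 165, 254 and 209 in control and 22.7, 21.8 and 24.8 in RNAi-labelled libraries on the control diet, and 222, 148 and 298 against 15.9, 39.8 and 17.6 on high sugar. The groups were far apart on both diets. CG9542 fell by 3.10 ± 0.31, or 8.60-fold (limma, adjusted p = 1.9e-05), on the control diet and by 3.20 ± 0.31, or 9.18-fold (adjusted p = 1.13e-05), on high sugar. Of the 4 other ommochrome genes measured, KFase was the 1 that passed on the control diet (8.56% of all genes passed there, and 13.4% on high sugar). On high sugar karmoisin (kar), an eye colour gene that encodes a putative monocarboxylate transporter, also passed, upward: it was 131, 113 and 142 in control and 283, 172 and 292 in RNAi-labelled libraries (0.92 ± 0.17, adjusted p = 0.00259 by limma). On the control diet kar was 271 ± 15.5 against 272 ± 7.47, a difference of 0.01 ± 0.17. The interaction for kar was 0.91 ± 0.25 and did not pass (adjusted p = 0.197 by limma).

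The first enzyme of the pteridine pathway, Punch, was the most abundant of the 5 genes in control larvae in normalised abundance, which is not divided by transcript length. It was 1783, 1875 and 1293 in control and 3062, 2821 and 2294 in RNAi-labelled libraries on the control diet, and 1601, 2385 and 1782 against 3268, 3431 and 3201 on high sugar. The genotypes did not overlap on either diet. The difference was 0.73 ± 0.17, or 1.66-fold, on the control diet and 0.80 ± 0.17, or 1.74-fold, on high sugar. None of the 4 nearest measured genes passed on either diet.

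Purple, the next step, had separate genotypes on high sugar and overlapping ones on the control diet. On the control diet it was 352, 359 and 305 in control and 364, 308 and 242 in RNAi-labelled libraries, which overlap (-0.17 ± 0.22). On high sugar it was 214, 376 and 424 against 208, 173 and 205, which do not overlap (-0.73 ± 0.22, or 1.66-fold lower). The lowest control library, 214, lay just above the highest RNAi-labelled one, 208, and the test of the difference between diets, given below, did not pass. None of the 4 nearest measured genes around pr passed on either diet. In all, 3 of the 5 genes (bw, v and Pu) had genotypes without overlap on the control diet, where 26.1% of all genes did, and 4 of 5 (with pr) on high sugar, where 31.7% did. The genes were chosen with these contrasts in view, and nothing is read from these shares.

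Of 12 other pteridine genes measured, 2 were called higher and 1 lower in RNAi-labelled libraries on the control diet (8.56% of all genes were called). On high sugar 1 was called higher and 0 lower (13.4% of all genes were called). Henna (Hn), the phenylalanine hydroxylase that uses tetrahydrobiopterin, was 1915, 1874 and 1954 in control and 3868, 3336 and 2682 in RNAi-labelled libraries on the control diet, and rose by 0.77 ± 0.16 (limma, adjusted p = 0.00545). On high sugar Hn was 2596 ± 241 against 2894 ± 555 and did not pass (0.14 ± 0.16). GstO3 (CG6776), an omega-class glutathione transferase of the family of sepia, rose from 236 ± 47.7 to 395 ± 97.4 on the control diet (0.73 ± 0.20, adjusted p = 0.0311 by limma). DhpD, a dihydropterin deaminase, fell from 269 ± 91.7 to 145 ± 13.3 (-0.83 ± 0.20, adjusted p = 0.0186 by limma). The call of CG6776 was lost without control replicate 1 or 2 or RNAi-labelled replicate 3, where it was 0.54 at the lowest. The call of DhpD was lost without control replicate 3 or RNAi-labelled replicate 1 or 2, where it was -0.57 at the weakest. The median of the 12 was 0.067 and -0.112 on the 2 diets.

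Rosy (ry), xanthine dehydrogenase, which acts on pterins and purines, was the pteridine gene called on high sugar. It was 440, 396 and 288 in control and 695, 585 and 674 in RNAi-labelled libraries, and rose by 0.81 ± 0.15 (limma, adjusted p = 0.00236). On the control diet it was 395, 493 and 418 against 356, 308 and 323, a difference of -0.40 ± 0.15 that did not pass (adjusted p = 0.135 by limma). The difference between diets itself was 1.21 ± 0.22 (limma interaction, adjusted p = 0.0382). That call was lost in 9 of 12 fits that left out 1 library (values 1.04 to 1.34); it was kept without replicate 1 of either control group or RNAi-labelled replicate 2 on high sugar.

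**Figure D4:**
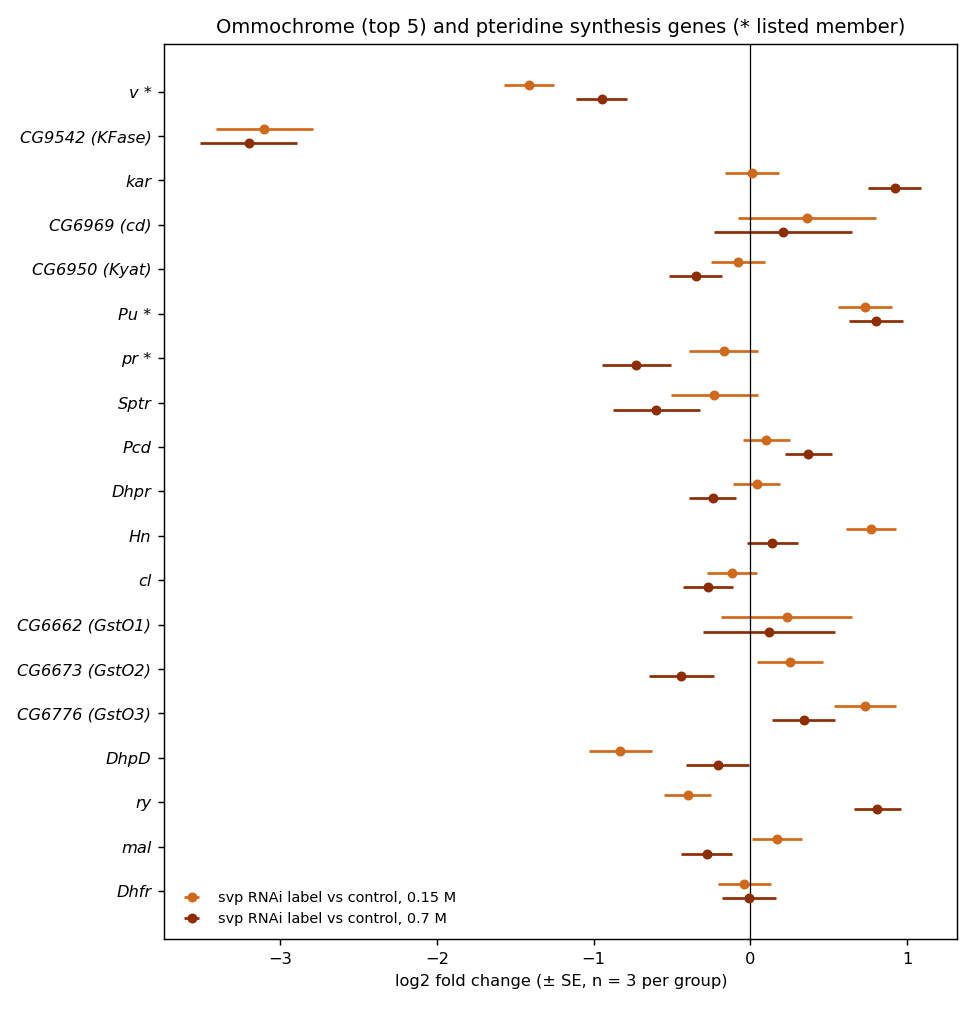
Log2 difference between RNAi-labelled and control libraries, with standard errors, for the ommochrome and pteridine synthesis genes measured, on each diet. CG9542 stands lowest at -3.10 and -3.20, and v is the next lowest at -1.41 on the control diet.

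GTP, from which pteridines are made, comes from purine synthesis. Of 10 purine genes, Prat2, the amidotransferase of the committing step, rose on both diets. It was 2726, 3378 and 2924 in control and 6714, 5502 and 5128 in RNAi-labelled libraries on the control diet, and 2857, 3217 and 3051 against 6822, 6828 and 8380 on high sugar. The differences were 0.94 ± 0.14 (limma, adjusted p = 0.000612) and 1.27 ± 0.14 (adjusted p = 3.4e-05). On the control diet 1 purine gene fell, bur, named here after its values were seen (-0.48 ± 0.12, adjusted p = 0.023 by limma), and 8 did not pass. On high sugar 9 did not pass. Of all genes, 8.56% were called on the control diet and 13.4% on high sugar. The median of the 10 was -0.192 and -0.066.

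Among 20 genes of pigment granule traffic, whose products carry cargo to granules and lysosomes, 1 was called higher and 1 lower on the control diet. With high sugar 0 were called higher and 2 lower. The share of all genes called between genotypes was 8.56% on the control diet and 13.4% on high sugar. blos2, a subunit of the BLOC complex, rose on the control diet by 1.01 ± 0.25 (limma, adjusted p = 0.0203), and lost that call without replicate 1 or 2 of either control-diet group (0.85 to 1.19 over all such fits). Vps11 (CG32350) fell on high sugar (-0.85 ± 0.23, adjusted p = 0.0226 by limma), with its call lost without replicate 2 or 3 of either high-sugar group (-1.12 to -0.59 over all such fits). Pink (p), named for the genotype contrasts after its values were seen, fell on both diets, by 0.57 ± 0.12 (adjusted p = 0.00582 by limma) and by 0.39 ± 0.12 (adjusted p = 0.0397). The median of the 20 was 0.097 and 0.005.

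In control larvae none of the 5 genes passed the test between diets. With jointly scaled reads, bw was 85.2 ± 35.1 on the control diet and 55.7 ± 25.5 on high sugar (-0.61 ± 0.32, adjusted p = 0.388 by limma), and v was 210 ± 22.0 and 190 ± 26.7 (-0.15 ± 0.16, adjusted p = 0.71). Pu was 1726 ± 337 and 1846 ± 386 (0.10 ± 0.17, adjusted p = 0.84 by limma) and pr was 354 ± 33.4 and 324 ± 105 (-0.18 ± 0.22, adjusted p = 0.755). Scarlet was 4.70 to 6.16 on the control diet, and high sugar gave 1.87 to 3.94, without overlap, on 2 to 6 reads per library (-0.87 ± 0.51, adjusted p = 0.448 by limma). So 0 of 5 were called, where 1.9% of all genes were. At an unadjusted p under 0.05, which 15.5% of all genes had, 0 of 5 passed by limma on log values, and 0 by voom. Intervals of 2 standard errors reached from -1.26 to 0.03 for bw, from -0.47 to 0.17 for v and from -0.25 to 0.44 for Pu.

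In RNAi-labelled libraries, 1 of 5 genes was called between diets, where 8.46% of all genes were. Purple fell from 316 ± 62.0 to 188 ± 19.3 jointly scaled reads (-0.73 ± 0.22, adjusted p = 0.0498 by limma), with no overlap between diets. That call sits at the threshold: it was lost in 9 of 12 fits that left out 1 library, and at an adjusted p of 0.0502 with a pseudocount of 5 and of 0.0509 with voom. The log2 difference stayed between -0.89 and -0.60. Brown was 2719 ± 511 and 3386 ± 137 (0.33 ± 0.32, adjusted p = 0.557 by limma), v was 78.0 ± 8.77 and 98.3 ± 14.3 (0.33 ± 0.16, adjusted p = 0.22), and Pu was 2825 ± 398 and 3172 ± 102 (0.18 ± 0.17, adjusted p = 0.559). Scarlet was 5.91 ± 3.25 and 4.14 ± 2.72 (-0.51 ± 0.51, adjusted p = 0.573 by limma).

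The difference of the genotype differences between diets was not called for any of the 5 genes, where 0.192% of all genes were called. It was 0.92 ± 0.46 for bw (adjusted p = 0.451 by limma) and 0.46 ± 0.23 for v (adjusted p = 0.449). It was -0.57 ± 0.31 for pr (adjusted p = 0.482 by limma), 0.39 ± 0.71 for st (adjusted p = 0.863) and 0.07 ± 0.25 for Pu (adjusted p = 0.935). At an unadjusted p under 0.05, which 11.8% of all genes had, 0 of 5 passed by limma on log values and 0 by voom. The larger fold of brown on high sugar, the smaller fold of vermilion and the separation of purple on high sugar are therefore not shown to differ from those on the control diet.

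**Figure D5:**
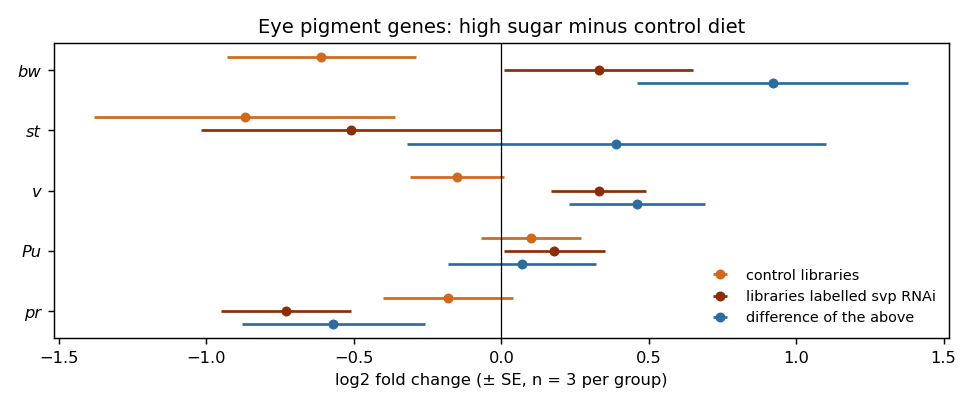
Log2 differences with standard errors for the 5 genes: high sugar against control diet in control larvae, the same in RNAi-labelled libraries, and the interaction. Purple in RNAi-labelled libraries, at -0.73, is the 1 value that passed the test.

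The wider lists were also read between diets, where 1.9% of all genes were called in control larvae and 8.46% in RNAi-labelled libraries. The lists were not tested against these shares. In control larvae kar fell on high sugar (-1.19 ± 0.18, adjusted p = 0.00235 by limma), 1 of 4 ommochrome genes, and CG5853 rose (1.10 ± 0.16, adjusted p = 0.00229), 1 of 11 transporters. No other pteridine, purine or granule traffic gene passed there by limma. In RNAi-labelled libraries, 4 of 11 transporters were called higher. They were CG5853 (1.09 ± 0.16, adjusted p = 0.00115 by limma), CG32091 (0.86 ± 0.19, adjusted p = 0.0151), Atet (0.80 ± 0.22, adjusted p = 0.0383) and CG17646 (0.75 ± 0.18, adjusted p = 0.0231). Rosy rose there as well (0.87 ± 0.16, adjusted p = 0.00444 by limma), 1 of 12 pteridine genes. Of 20 granule traffic genes 1 was called higher, p (0.57 ± 0.12, adjusted p = 0.0112 by limma), and 1 lower, CG32350 (-0.89 ± 0.23, adjusted p = 0.0299). Calls of Atet, CG17646, CG32091 and CG32350 were lost in 5, 3, 2 and 4 of 12 fits that left out 1 library, each time an RNAi-labelled one, with ranges of 0.66 to 1.03, 0.62 to 0.86, 0.67 to 1.0 and -1.02 to -0.75. The 2 diet contrasts share no library, while each shares libraries with the genotype contrasts, so a gene called in both is not 2 independent results.

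The genes whose levels ran most like those of the 5 were named by Pearson's r of log2(reads + 1) over the 12 libraries, as a description with no test; a large part of each r is the difference between groups. For bw they were ppk3 (CG30181, r = 0.988), CG31344 (0.979), Npc2a, a sterol-binding protein (0.976), Shmt (CG3011), serine hydroxymethyltransferase (0.976), and CG4928 (0.972). Of these, ppk3 alone lies on the arm of brown. Npc2a was 1066 ± 104 and 1136 ± 100 (SD, n = 3) in the control groups and 2181 ± 246 and 2773 ± 224 in the RNAi-labelled groups, on the control diet and high sugar. Shmt was 4518 ± 884 and 3990 ± 617 against 9945 ± 1227 and 12240 ± 1091. For v they were hll (CG4500, 0.981) and Idgf5 (0.974), for Pu Uck (CG6364), uridine-cytidine kinase (0.976), and RhoGAP93B (0.975). For pr they were Antp (0.932) and Cyp9b1 (0.922), and for st Datp (Apf, 0.898) and CG7974 (0.892), where st itself has 1 to 11 reads per library.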

How the data were processed

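Fat body RNA was measured in 12 libraries, 3 for each of 4 groups taken from the labels. The authors deposited a signal per gene, named normalised abundance, in read-like units; the submitters' processing notes list build dm3, edgeR, Cufflinks 1.1.0, Bowtie 0.12.7 and TopHat 1.3.2. How reads were counted, on which annotation and with which strand setting is not given in the sources used here, so reads of overlapping genes (mi with bw, CG43373 with st, CG4286 with Pu, bwa with pr) may not be told apart.

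From these values the form of a quantile adjustment to a common library size, made separately for the 6 libraries of each diet, was inverted to whole reads: at least 99.85% of low values fell within 0.1 of a whole number, against 13.4% to 43.4% as deposited. For genes with means of 12 to 20, not used to find the factors, the lowest share was 99.73%. Reads were then scaled jointly by the median of ratios. The table held 9527 rows; 156 whose 80 names repeat without regard to case and 4 with numbers for names were left out, which leaves 9367 genes, all with a mean of at least 1 and at least 1 read in every library. The diets had been joined by symbol: in all 38 case pairs the name followed the high-sugar values.

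limma 3.58.1 (R 4.3.3) was fitted with an intensity trend to log2(value + 1), in 1 model of all 12 libraries with a mean per group; p-values were adjusted by Benjamini-Hochberg over the 9367 genes, with a threshold of 0.05. Fold changes are on that scale, which understates changes of low genes. Genotype contrasts and the interaction used deposited values; diet contrasts used the jointly scaled reads, since the median gene differed by 0.103 (log2) between diets as deposited and by -0.009 after scaling. The fit was tested on simulated data with the same dispersion for every gene, in which only genes with a mean of at least 20 were changed. That simulation does not cover changes in genes with few reads, such as st, or the spread between these libraries. Alternatives were pseudocounts of 0.5 and 5, a mean of at least 20, quantile normalisation, voom on recovered reads, the replicate number as a block, the other scaling, and leaving out each library. No label tells if libraries with the same replicate number belong together.

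The genes, lists and rules were chosen with earlier results of these data known. Named by rule are the 5 genes, svp, per contrast the up to 8 called list genes with the largest difference, the 2 measured genes on each side, and the 5 (bw) or 2 genes most alike. Named outside these rules are w, bur, p in the genotype contrasts, CG9812 and the single markers Lsp1alpha, Lsp2, Ncc69, Alp4 and elav. The reference is release 6 and not dm3, so it gave names, arms and gene order but no coordinates: 7013 symbols matched a current symbol and 2237 a synonym.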

Additional observations from a re-analysis of the deposited data

Results flagged for a closer look

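The genotype difference of ry, xanthine dehydrogenase, was picked out by a test of its difference between diets: -0.40 ± 0.15 on the control diet and 0.81 ± 0.15 on high sugar, an interaction of 1.21 ± 0.22 on the log2 scale (limma, adjusted p = 0.0382, n = 3 libraries per group). That call was lost in 9 of 12 fits that left out 1 library, with values of 1.04 to 1.34.

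The white gene stood outside the tested genes, because its control-diet values cannot be assigned, and showed a signal there: on high sugar its mean abundance was 6.33-fold higher in the 3 RNAi-labelled libraries than in the 3 control libraries, without overlap and with no test. The source of those reads was not tested.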

How the results depend on the processing

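Over all genes, the 178 calls between diets in control became 307 on the deposited values as they are, and the 792 in RNAi-labelled libraries became 1283. With 1 library left out these were 103 to 236 and 273 to 878, the genotype calls were 562 to 872 (main 802) and 785 to 1355 (main 1255), and the interaction calls 6 to 30 (main 18, and 28 with a pseudocount of 5). The count of 1 called pigment gene (pr, between diets, RNAi-labelled libraries) was 0 with a pseudocount of 5, with voom, with the deposited values (adjusted p = 0.0701, limma) and with the replicate block (adjusted p = 0.0727, limma), and 0 to 1 with 1 library left out. With the block, the calls over all genes were 187 and 766 between diets, 801 and 1201 between genotypes and 25 for the interaction. Deviations of same-numbered libraries correlated at -0.147 to 0.133, and 2 of 6 libraries in each contrast correlated best with their own number. These values do not decide if the numbers pair libraries. Directions changed with 1 library left out for these tested but uncalled differences: Pu between diets in control (-0.07 to 0.21), pr likewise (-0.37 to 0.12), st between diets in RNAi-labelled libraries (-0.86 to 0.04) and Pu in the interaction (-0.05 to 0.23). The untested genotype difference of st on the control diet, 0.01, also changed direction (-0.35 to 0.35). Of the 59 gene results computed, 13 lost a call in at least 1 such fit; the cause was not tested. Few reads limit st, with 1 to 11 per library, and the control levels of bw and CG30181; counting error alone is large there.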
